A study of Homo sapiens with 15 samples.

Results

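The sites occupied by BMAL1 and by HIF2α were compared in 786O cells, an established line of clear cell renal cell carcinoma (ccRCC), that carried a control shRNA. The comparison took every peak in the pooled BMAL1 list (1812 peaks) and in the pooled HIF2α list (1204 peaks) of these cells, 3016 of the 4873 peaks in the 4 lists of the series. Both lists as analysed held slightly fewer peaks than the number in the name given to them, and which is right is not known. Occupancy was profiled by CUT&RUN, in which an antibody bound to chromatin tethers a nuclease that releases the DNA beneath it for sequencing. The series holds 15 libraries, of which 6 stand behind these lists, 3 made with a BMAL1 rabbit monoclonal antibody and 3 with a HIF-2α rabbit monoclonal antibody. All 6 came from cells infected with lentivirus that expressed a scrambled shRNA (shControl), with a genotype given as WT in the labels and no drug treatment named there. The 3 libraries of an antibody are numbered as biological replicates in the labels, whereas the study's reporting form calls them technical, and they were merged into 1 list, so that no spread between libraries stands behind any value and no test was made. Intervals given below are 95% intervals, Wilson for a share and Newcombe for a difference of shares, and cover counting error over peaks or genes only. Libraries made with a control IgG were not used here, and a peak list gives no read depth.

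BMAL1 is a bHLH-PAS transcription factor that pairs with CLOCK or NPAS2 to bind E-boxes (CACGTG), and this heterodimer drives the genes of its own repressors, the PER and CRY proteins, in the circadian feedback loop. HIF2α, the product of EPAS1, belongs to the same protein family and pairs with ARNT to bind hypoxia response elements (HREs), whose core reads ACGTG or GCGTG. The ACGTG core is contained in the E-box. ccRCC cells commonly lack a working VHL ubiquitin ligase, which otherwise sends HIF2α for destruction when oxygen is present. HIF2α then drives genes of metabolism, proliferation and vessel growth. The question was which sites and genes these related factors occupied together and which apart.

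The first set of sequences shows E-boxes under BMAL1 peaks at clock genes. Each is 25 bases on either side of the motif nearest the peak summit, read from hg19 in the direction of the motif, with the motif in capitals. The first lies in the promoter of PER1 under the BMAL1 peak of rank 89 (chr17:8060016-8060071, + strand). The second lies in an intron of PER1 under the BMAL1 peak of rank 632 (chr17:8057031-8057086, + strand). Those of CIART (chr1:150254811-150254866, + strand) and TEF (chr22:41777728-41777783, + strand) lie in promoters.
PER1 promoter: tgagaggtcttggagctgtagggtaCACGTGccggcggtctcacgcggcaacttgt
PER1 intron: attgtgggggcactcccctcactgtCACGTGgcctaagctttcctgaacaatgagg
CIART promoter: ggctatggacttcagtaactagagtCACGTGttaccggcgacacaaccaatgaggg
TEF promoter: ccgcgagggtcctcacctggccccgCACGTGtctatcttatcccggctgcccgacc

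The second set shows the ACGTG core under HIF2α peaks at hypoxia genes, each a peak that no BMAL1 peak overlapped. The sites of ALDOA (chr16:30076858-30076912, − strand), PGK1 (chrX:77359537-77359591, − strand) and VEGFA (chr6:43737610-43737664, − strand) lie in promoters. The site of ANGPTL4 (chr19:8427002-8427056, − strand) lies 5′ of the gene, that of TGFA (chr2:70823929-70823983, − strand) between genes, and that of EGLN3 (chr14:34504960-34505014, + strand) in an intron of its longest transcripts. A further one lies between MYEOV and CCND1 (chr11:69234606-69234660, + strand) and was chosen after its values were seen.
ALDOA: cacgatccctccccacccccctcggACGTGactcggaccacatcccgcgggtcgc
PGK1: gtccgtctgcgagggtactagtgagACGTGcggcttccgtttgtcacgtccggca
VEGFA: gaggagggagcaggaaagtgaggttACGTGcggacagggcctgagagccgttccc
ANGPTL4: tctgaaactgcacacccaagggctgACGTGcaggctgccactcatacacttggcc
TGFA: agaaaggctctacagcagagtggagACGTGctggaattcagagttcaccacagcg
EGLN3: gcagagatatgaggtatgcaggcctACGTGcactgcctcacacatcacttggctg
MYEOV: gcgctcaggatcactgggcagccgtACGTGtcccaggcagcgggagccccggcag

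The third set shows motifs where peaks of both proteins overlapped. In the LDHA promoter, the BMAL1 summit window held 1 E-box (chr11:18415998-18416053, + strand) and the HIF2α window another as its nearest (chr11:18415900-18415955, + strand). The same E-box in an intron of HK2 was nearest to both summits (chr2:75095404-75095459, + strand). The same ACGTG core was nearest to both summits in an intron of SLC2A1 (chr1:43406844-43406898, − strand), upstream of STC2 (chr5:172882325-172882379, + strand) and downstream of BHLHE40 (chr3:5065139-5065193, + strand).
LDHA under BMAL1: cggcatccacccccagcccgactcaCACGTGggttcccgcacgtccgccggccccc
LDHA under HIF2α: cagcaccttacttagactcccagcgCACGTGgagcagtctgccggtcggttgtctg
HK2 under both: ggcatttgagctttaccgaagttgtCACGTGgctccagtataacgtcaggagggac
SLC2A1 under both: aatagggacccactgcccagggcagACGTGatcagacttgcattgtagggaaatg
STC2 under both: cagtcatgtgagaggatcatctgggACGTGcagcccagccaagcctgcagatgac
BHLHE40 under both: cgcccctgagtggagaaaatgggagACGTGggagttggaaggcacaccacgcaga

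Most peaks of either protein stood apart from those of the other. Of the BMAL1 peaks, 335 overlapped a HIF2α peak by at least 1 bp, or 18.5% (16.8% to 20.3%). Of the HIF2α peaks, 336 did, or 27.9% (25.4% to 30.5%). These made 336 overlapping pairs, since 1 BMAL1 peak met more than 1 HIF2α peak, and 1477 BMAL1 and 868 HIF2α peaks stood alone. Peaks that stood alone were seldom close to each other, as 1.02% of such BMAL1 peaks and 1.73% of such HIF2α peaks had a peak of the other protein within 1000 bp. The lists differ in length, and with both cut to 1204 peaks the shares were 15.7% of BMAL1 and 15.8% of HIF2α peaks.

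BMAL1 sat mainly at gene starts and HIF2α mainly away from them. The midpoint of 991 BMAL1 peaks lay in a promoter, taken as 1000 bp upstream to 100 bp downstream of a protein-coding start site, or 54.7% (52.4% to 57.0%). For HIF2α the number was 209, or 17.4% (15.3% to 19.6%), and the difference was 37.3 percentage points (34.1 to 40.4). The median distance to the nearest protein-coding start site was 299.5 bp for BMAL1 and 19432.5 bp for HIF2α. Among peaks that stood alone the promoter shares were further apart, 62.2% for BMAL1 and 15.3% for HIF2α, a difference of 46.8 points (43.3 to 50.1). Where the peaks overlapped, the shares were alike by construction, 21.8% and 22.6%. With start sites of all annotated genes in place of protein-coding ones, the median distances were 197.5 bp and 3569.5 bp.

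The distances spread differently over the range. Within 100 bp of a start site lay 23.5% of BMAL1 and 7.56% of HIF2α peaks, and more than 100 and up to 1000 bp away 34.3% and 12.7%. More than 10000 and up to 100000 bp away lay 22.4% of BMAL1 and 44.3% of HIF2α peaks, and beyond 100000 bp 5.74% and 15.7%. HIF2α peaks fell on both sides of the nearest start site about equally, with 49.2% downstream, whereas 34.1% of BMAL1 peaks were downstream. Outside promoters, HIF2α peaks were found in introns (39.3%) and between genes (39.0%), against 23.5% and 19.3% for BMAL1. Coding exons held few peaks, 30 of BMAL1 (1.66%) and 36 of HIF2α (2.99%). These include peaks on EPAS1 and ARNT, whose exon signal has a limit given below.

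**Figure D1:**
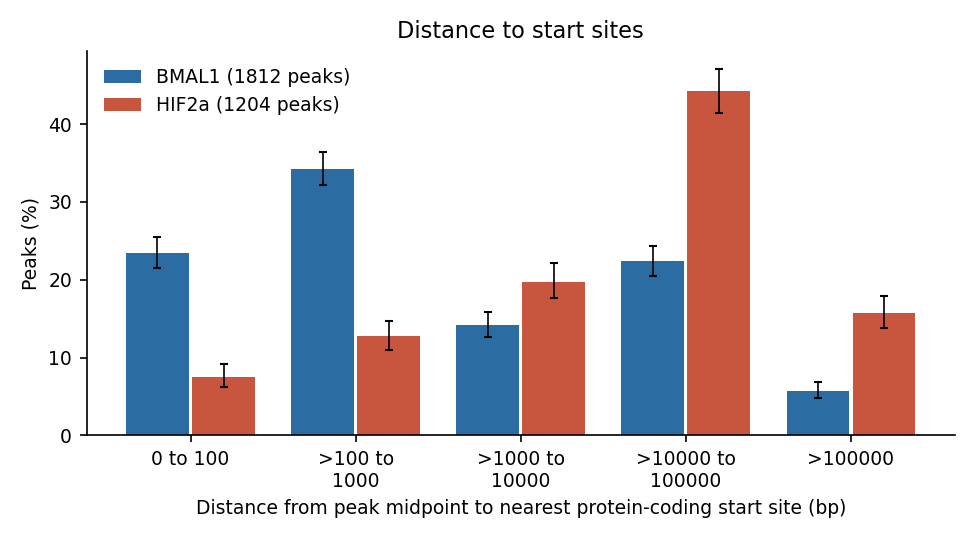
Share of peaks (%) by distance in bp from the peak midpoint to the nearest protein-coding start site, for the 1812 BMAL1 and 1204 HIF2α peaks, with 95% Wilson intervals as error bars. BMAL1 is the higher bar within 1000 bp and HIF2α the higher bar beyond it.

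Promoter peaks of BMAL1 were rarely shared, and those of HIF2α were shared at least as often as its distal ones. Of BMAL1 promoter peaks 7.37% (5.90% to 9.16%) overlapped a HIF2α peak, and of BMAL1 distal peaks 31.9% (28.8% to 35.2%). Of HIF2α promoter peaks 36.4% (30.1% to 43.1%) overlapped a BMAL1 peak, and of HIF2α distal peaks 26.1% (23.5% to 28.9%). The promoter shares rest on 73 of 991 BMAL1 and 76 of 209 HIF2α peaks, and the smaller HIF2α number limits the BMAL1 share. The BMAL1 list also leaned toward chromosome 19, a chromosome dense in genes, with 267 peaks (14.7%), against 42 HIF2α peaks (3.49%) and 7.25% of protein-coding genes. That difference was 11.2 points (9.28 to 13.2).

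Peaks of BMAL1 were somewhat wider. The median width was 240 bp for BMAL1 (quartiles 174 and 362 bp) and 217 bp for HIF2α (quartiles 166 and 300 bp). Widths above 500 bp were found for 12.9% of BMAL1 and 7.81% of HIF2α peaks. Within each list width moved with the −log10 p that ranks the peaks, with a Spearman rho across peaks of 0.51 for BMAL1 and 0.38 for HIF2α, a description with no test. In the strongest quintile of each list the median widths were 434.5 bp and 294 bp, and in the weakest quintile 194 bp and 175 bp. Overlapping peaks had median widths of 238 bp for BMAL1 and 235 bp for HIF2α.

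The rank of a peak went with its place in opposite ways in the lists. From the strongest to the weakest quintile by −log10 p, the promoter share of BMAL1 peaks was 62.4%, 60.5%, 62.8%, 46.1% and 41.6%. The promoter share of HIF2α peaks was 11.7%, 14.5%, 14.9%, 22.4% and 23.2%. The stronger peaks thus held more promoters for BMAL1 and fewer for HIF2α. Median fold enrichment fell from 17.1 to 4.83 between the outer quintiles for BMAL1 and from 11.6 to 4.89 for HIF2α.

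Overlap with HIF2α was most frequent among the weaker BMAL1 peaks. Its share was 12.7%, 16.6%, 17.1%, 20.2% and 25.9% from the strongest to the weakest quintile of BMAL1 peaks. Among HIF2α peaks the share that overlapped BMAL1 was 36.3%, 28.2%, 19.1%, 27.8% and 28.2%, highest in the strongest quintile. That top value rested in part on 2 kinds of peak described next, those on the gene bodies of EPAS1 and ARNT and those that match the mitochondrial genome. Without them the strongest quintile gave 5.39% for BMAL1 and 23% for HIF2α, while the weakest gave 24.9% and 28.5%.

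**Figure D2:**
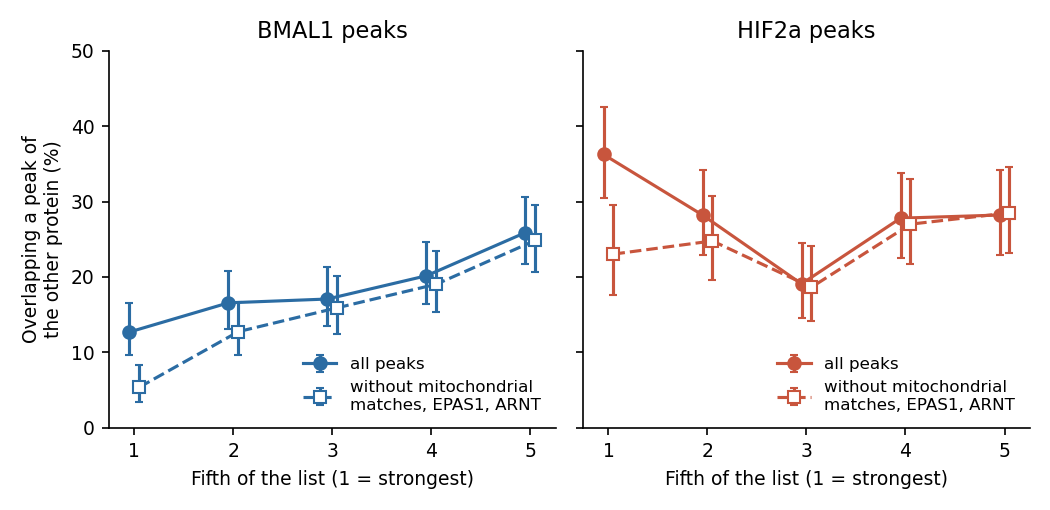
Share of peaks (%) that overlapped a peak of the other protein, by quintile of each list ordered by −log10 p (1 = strongest), with 95% Wilson intervals, for all peaks (filled circles, solid line) and without mitochondrial matches and peaks on EPAS1 and ARNT (open squares, dashed line). BMAL1 rises toward the weak end, to 25.9%, and the 2 HIF2α lines part in the strongest quintile, at 36.3% and 23%.

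The strongest peak of both lists lay on EPAS1, the gene of HIF2α, and further peaks lay on ARNT, the gene of its partner. The 10 BMAL1 peaks in the EPAS1 gene body took ranks 1 to 10 with fold enrichments of 98.9 to 189. The 11 HIF2α peaks there took ranks between 1 and 15 with folds of 10.5 to 20.6. Every one of them, 10 of 10 and 11 of 11, overlapped an annotated coding exon. In the ARNT gene body lay 14 BMAL1 peaks, of which 13 touched a coding exon, and 14 HIF2α peaks, of which 14 did. The BMAL1 peaks there had ranks from 22 to 693 and folds of 9.25 to 23.6. The HIF2α peaks there had ranks from 6 to 152 and folds of 8.13 to 19.3. For 12 peaks of each list in the ARNT body the nearest start site was that of the neighbouring CTSK, a lysosomal protease of osteoclasts, so that they count under CTSK by the nearest-start rule. The 24 BMAL1 and 25 HIF2α peaks on both gene bodies gave 24 of the 336 pairs. Whether the ranks and folds on these exons measure occupancy of the chromosomal genes was not tested, and they are given with that limit.

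A second kind of peak, found over the whole range of ranks, had a sequence like that of the mitochondrial genome. Such a match was found for 36 BMAL1 peaks (1.99%) and 50 HIF2α peaks (4.15%). All 36 BMAL1 peaks of this kind were overlapping ones and made up 10.7% of the overlapping BMAL1 peaks, while 0 of the 1477 that stood alone had a match, a count of 0 that with 3 peaks as its limit allows a share of up to 0.203% (upper Wilson limit 0.259%). Of the HIF2α peaks of this kind 14 stood alone, or 1.61% of the 868. They were narrow, with median widths of 160.5 bp for BMAL1 and 163 bp for HIF2α. Their folds were low for their rank, with medians of 3.74 and 4.45 against 7.13 and 6.87 over all peaks. The best-placed HIF2α genes include several of them, namely PCDH11Y (rank 12), FAM168A (rank 19), EFNA5 (rank 21), KCNJ3 (rank 22) and FSTL5 (rank 25), all at least 87277 bp from a start site. Their part in the overlap was not tested beyond leaving them out. Without both kinds, 276 of 1752 BMAL1 peaks (15.8%) and 276 of 1129 HIF2α peaks (24.4%) overlapped.

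The DNA under the peaks differed between the proteins, most of all in the HRE core and the GC box. Motifs were searched on both strands in 200 bp windows at the summit, and the shares below are for peaks that stood alone unless stated. The E-box CACGTG was in 12.8% of BMAL1 and 5.53% of HIF2α windows, a difference of 7.22 points (4.87 to 9.47). The HRE core ACGTG, which every E-box also contains, was in 22.7% of BMAL1 and 60.8% of HIF2α windows, a difference of −38.1 points (−41.9 to −34.1). The ACGTG difference was like in promoters (−39.0 points) and distal sites (−36.8 points), whereas that of the E-box was 3.94 points in promoters, with an interval that included 0 (−2.13 to 7.99), and 9.70 points in distal sites (6.42 to 13.2). In windows of the same length on all protein-coding start sites the shares were 5.15% for the E-box and 15.8% for ACGTG. Most BMAL1 windows thus held neither of these motifs, and most HIF2α windows held the HRE core. Windows 2000 bp to each side of all peaks held the E-box in 3.32% for BMAL1 and 2.45% for HIF2α. They held ACGTG in 11.1% and 10.3%. In windows of 100 bp the differences were 4.18 points for the E-box and −20.01 points for ACGTG.

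The base before the ACGTG core set the lists apart. TACGTG was in 31.6% (28.6% to 34.7%) of HIF2α windows and in 1.36% (0.88% to 2.09%) of BMAL1 windows. GACGTG was in 21.3% and 6.58%, and AACGTG in 9.68% and 4.82%. Only with C as that base, which makes the E-box, was BMAL1 the higher. The other core, GCGTG, was the more frequent in BMAL1 windows, 46.9% against 30.9%, and its share on start sites was 30.9%. In the windows 2000 bp to each side of all peaks it was 19.6% for BMAL1 and 16.1% for HIF2α. In promoter windows alone GCGTG was in 55.5% and 47.4%, a difference of 8.09 points whose interval included 0 (−0.949 to 17.0).

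Motifs of other factors also differed, although the CCAAT box did so clearly only with promoter and distal peaks pooled. The AP-1 site, TGACTCA or TGAGTCA, which binds dimers of the JUN and FOS families, was in 29.4% of HIF2α windows and 9.91% of BMAL1 windows. In distal windows alone it was in 32.2% and 22.8%, a difference of −9.49 points (−14.3 to −4.57), against 2.44% of start sites. In the windows 2000 bp to each side of all peaks it was in 3.74% for HIF2α and 3.81% for BMAL1. The GC box, GGGCGG, which binds SP family factors, was in 69.9% of BMAL1 and 15.8% of HIF2α windows. In promoters alone the GC box shares were 87.0% and 53.4%, and in distal windows 41.9% and 8.98%. The CCAAT box was in 32.8% and 22.8%, and on start sites in 23.1%. Median GC content of the windows was 67% for BMAL1 and 52.5% for HIF2α, and its part in the motif shares was not tested.

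**Figure D3:**
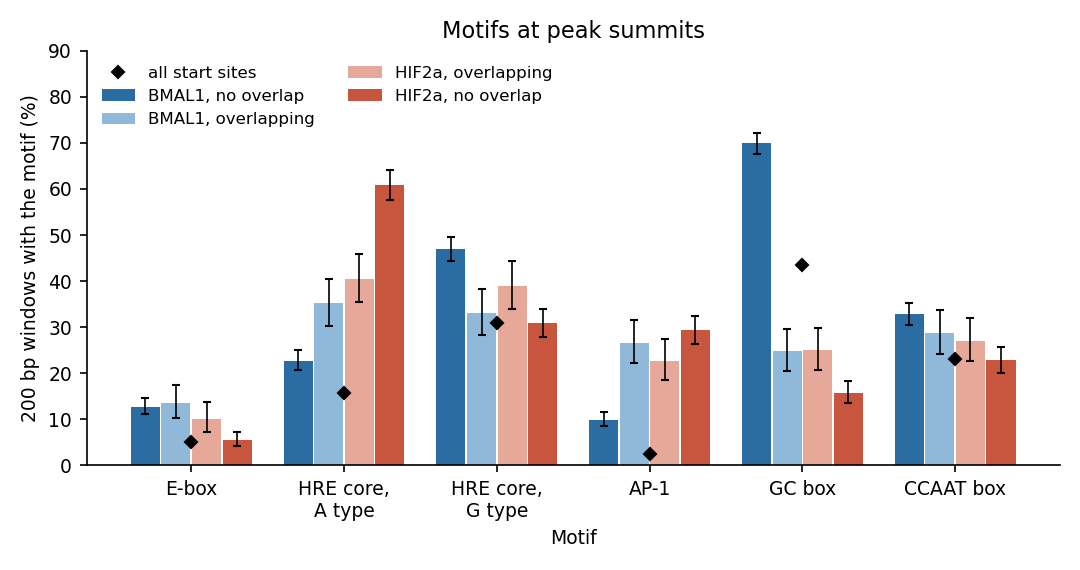
Share of 200 bp summit windows (%) that hold each motif, for BMAL1 and HIF2α peaks with and without an overlap, with 95% Wilson intervals, and for windows on all protein-coding start sites (diamonds). The A type of HRE core is ACGTG and the G type is GCGTG. Promoter and distal peaks are pooled. For ACGTG and the GC box the overlapping peaks lie between the peaks of either protein alone.

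With promoter and distal sites pooled, overlapping sites stood between the peaks of either protein alone for ACGTG and the GC box. ACGTG was in 35.2% (30.3% to 40.5%) of overlapping BMAL1 windows and 40.5% (35.4% to 45.8%) of overlapping HIF2α windows. The GC box was in 24.8% and 25% of them. Promoters made up 21.8% and 22.6% of the overlapping BMAL1 and HIF2α peaks, against 62.2% and 15.3% of those that stood alone. The GC box was the more frequent in promoters, and its share at overlapping sites was not split by place. The E-box was in 13.4% and 10.1%, beside 12.8% of BMAL1 peaks that stood alone. TACGTG was in 4.78% and 8.93%, well under its share in HIF2α peaks that stood alone. AP-1 was in 26.6% and 22.6%, near its share in HIF2α peaks that stood alone. Without mitochondrial matches and EPAS1 and ARNT the ACGTG shares were 40.2% and 46.0%, and the AP-1 shares 32.2% and 27.5%.

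Motif shares also changed along each list. From the strongest to the weakest quintile, ACGTG was in 64.6%, 67.6%, 61.0%, 43.2% and 39.4% of all HIF2α windows. The E-box was in 6.93%, 14.1%, 18.2%, 13% and 12.1% of all BMAL1 windows. The share of HIF2α windows with the core was thus lower in the weaker 2 quintiles, and BMAL1 had the fewest E-boxes in its strongest quintile. The motif nearest the summit lay at a median of 43 bp from it for E-boxes under BMAL1 and 43.5 bp for ACGTG under HIF2α. It lay within 25 bp in 31.3% and 27.9% of the windows that held the motif. The windows are 200 bp long and centred on the summit, which bounds these distances.

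Each peak was assigned to the protein-coding gene with the nearest start site, its target gene. BMAL1 had 1625 target genes, which is 8.21% of 19794 protein-coding genes, and HIF2α had 970, which is 4.90%. The proteins shared 380 genes, which is 1.92% of all genes, 23.4% (21.4% to 25.5%) of BMAL1 target genes and 39.2% (36.2% to 42.3%) of HIF2α target genes. BMAL1 alone had 1245 genes and HIF2α alone 590. With both lists cut to 1204 peaks the shared part was 19.8% of BMAL1 and 22.6% of HIF2α target genes, and with peaks within 10000 bp of the start site only, 13.4% and 37.4%.

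Genes of BMAL1 alone were mostly promoter-bound, and shared genes mostly were not. A BMAL1 promoter peak was found at 68.8% (66.1% to 71.3%) of the genes of BMAL1 alone and at 31.8% (27.4% to 36.7%) of the shared genes. For HIF2α the numbers were 19.5% of its own and 24.5% of the shared genes. A single peak was the rule, at 90.7% of BMAL1 and 83.7% of HIF2α target genes. HIF2α had 3 or more peaks at 46 genes (4.74%) and BMAL1 at 18 (1.11%). After EPAS1 and CTSK, the HIF2α list had its most peaks at BHLHE40 (6), MYC (6) and NDRG1 (5), and the BMAL1 list at EEPD1 (4) and GTF2IRD2B (4), followed by BHLHE40, NDRG1, TRIO and others with 3 each. GTF2IRD2B has a near-identical copy nearby, so that its reads may be split.

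The repressors and outputs of the clock were largely BMAL1 genes. Of 14 such genes 12 were BMAL1 targets (85.7%, background 8.21%), 3 were HIF2α targets (21.4%, background 4.90%) and the same 3, BHLHE40, PER1 and PER2, were targets of both. The 9 with BMAL1 alone were BHLHE41, CIART, CRY1, CRY2, DBP, HLF, NR1D1, PER3 and TEF, and NFIL3 and NR1D2 had neither. The 16 BMAL1 peaks at these genes had a median place of 17.9% down the list, 10 of them lay in promoters and 6 windows held an E-box. The core activators, namely BMAL1, BMAL2, CLOCK, NPAS2 and the ROR genes, had no peak of either protein (0 of 7).

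PER1 and PER2, whose proteins restrain BMAL1 and CLOCK, carried both factors at the promoter with unequal rank. At PER1 the BMAL1 peak 236 bp upstream had rank 89 and a fold of 26.9, and the overlapping HIF2α peak had rank 1180 of 1204 and a fold of 3.75. The printed PER1 promoter E-box lies inside both peaks, but outside the HIF2α summit window. At PER2 the overlapping peaks had rank 168 and fold 13.4 for BMAL1, and rank 262 and fold 4.95 for HIF2α. PER3 had a BMAL1 peak only, of rank 229 and fold 13.5, 175 bp upstream.

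Most other clock genes with BMAL1 alone were bound close to the start site. The PAR bZIP factor gene TEF had rank 140 and fold 16.2 in a peak 1368 bp wide. CIART, which encodes a repressor of CLOCK and BMAL1, had rank 209 and fold 17.0. NR1D1, the gene of the nuclear receptor REV-ERBα that represses BMAL1, had rank 160 at an intron site 1240 bp downstream of the start and rank 313 at the promoter. CRY2 and CRY1 had ranks 298 and 337, and DBP had rank 666. HLF (rank 996) and BHLHE41 (rank 1740) were bound further down the list, at 26540 bp and 1089 bp upstream.

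BHLHE40, whose product DEC1 represses clock genes and is itself induced in hypoxia, went the other way. Its 6 HIF2α peaks had ranks from 94 to 1170 and its 3 BMAL1 peaks ranks 1477, 1568 and 1745 of 1812. At the promoter the HIF2α peak had rank 94 and fold 11.3, and the overlapping BMAL1 peak had rank 1745 and fold 4.06. A site 44056 bp downstream was shared as well, with rank 211 for HIF2α and 1568 for BMAL1. The BMAL1 peak of rank 1477, at 15592 bp downstream, held an E-box 3 bp from its summit and met no HIF2α peak. Of the clock turnover genes BTRC and CSNK1D had a BMAL1 peak (2 of 7, or 28.6%, background 8.21%) and none had a HIF2α peak.

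Known hypoxia genes were mostly HIF2α genes, and BMAL1 was found at part of them. Of 23 HIF targets of growth, vessels and matrix 16 were HIF2α targets (69.6%, background 4.90%), 9 were BMAL1 targets (39.1%, background 8.21%) and 8 were both (34.8%, background 1.92%). Of 17 HIF targets of glycolysis and mitophagy 10 were HIF2α targets (58.8%), 4 were BMAL1 targets (23.5%) and the same 4, HK2, LDHA, PDK1 and PFKFB4, were both. PLAUR was the only one of these 40 genes with BMAL1 alone, at a promoter peak of rank 28 and fold 37.0. Over both lists 26 genes were HIF2α targets, 13 BMAL1 targets and 12 both, and with lists of equal length these numbers were 26, 8 and 7. With peaks within 10000 bp of the start site only, they were 15, 7 and 5.

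Where both proteins sat at a hypoxia gene, HIF2α was usually the better placed. The 16 overlapping pairs at 11 of these genes had a median place of 75.4% down the BMAL1 list and 25% down the HIF2α list. In 13 of the 16 pairs the HIF2α peak was placed higher, against 60.7% of all 336 pairs. Exceptions included the pairs at LOXL2 and at the shared site of TGFA.

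Among the HIF targets of glycolysis and mitophagy, all 6 pairs at 4 genes had HIF2α placed higher. At LDHA, which makes lactate, a promoter HIF2α peak had rank 63 and fold 12.8, and the BMAL1 peak inside it had rank 1243 and fold 5.82. A second LDHA promoter pair was placed nearly alike, with rank 1072 for HIF2α and 1622 for BMAL1. At 2 intron sites of HK2, a hexokinase gene, HIF2α had ranks 300 and 301 and BMAL1 ranks 1203 and 1768. At the promoter of PFKFB4, whose product controls the pace of glycolysis, HIF2α had rank 133 and BMAL1 rank 655. At the PDK1 promoter the ranks were 803 for HIF2α and 1450 for BMAL1. Glycolytic genes with HIF2α alone included ALDOA (promoter, rank 39, fold 14.9), PGK1 (promoter, rank 101, fold 2.34), ENO1 (promoter, rank 221) and GAPDH (promoter, rank 685). The PGK1 fold was the lowest of all HIF2α promoter peaks and of the strongest HIF2α quintile, whose median was 11.6. Whether that peak measures occupancy of the chromosomal gene was not tested. PFKFB3 and BNIP3L had HIF2α peaks at distal sites only, with best ranks of 312 and 226.

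Among genes of growth, vessels and matrix the shared sites were mostly distal. SLC2A1, the gene of the glucose transporter GLUT1, had 4 HIF2α peaks, of which the one in an intron 1985 bp downstream had rank 54 and fold 13.9. The BMAL1 peak inside it had rank 1469 and fold 5.37. STC2, which encodes a secreted glycoprotein, had a shared site 126971 bp upstream in the BMAL1 list with rank 98 for HIF2α and 1659 for BMAL1. NDRG1 had 3 shared sites upstream of the gene, the best with rank 38 for HIF2α and 575 for BMAL1. MYC had 6 HIF2α peaks, all 113946 to 139285 bp downstream of its start, and 1 of them, of rank 256, overlapped a BMAL1 peak of rank 717.

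TGFA, an EGF receptor ligand, carried both proteins and had its strong site to HIF2α alone. That site, 42865 bp upstream, had rank 28 and fold 25.3, and the shared intron site had rank 990 for HIF2α and 1388 for BMAL1. VEGFA, the main vessel growth factor, had a HIF2α promoter peak of rank 416 and fold 6.01, and no BMAL1 peak. ADM (rank 138), ANGPTL4 (best rank 122), IGFBP3 (93), PDGFB (102), POU5F1 (149), PLIN2 (371) and CXCR4 (405) were also bound by HIF2α alone. EGLN3, the oxygen sensor of the HIF machinery list, had 3 HIF2α peaks of ranks 136, 372 and 591, all in introns, and no BMAL1 peak, while its relative EGLN2 had a BMAL1 promoter peak of rank 686 and no HIF2α peak. In that list BMAL1 and HIF2α each had 4 of 13 genes (30.8%, background 8.21% and 4.90%), and 2 of the 4 were EPAS1 and ARNT, to which the limit on exon signal applies.

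In the region between MYEOV and CCND1, which is known to hold a HIF enhancer of the cyclin D1 gene, HIF2α had a peak of rank 145 and fold 12.5. It lay 173032 bp downstream of the start of MYEOV, the nearest gene. No BMAL1 peak overlapped it, and the BMAL1 peak assigned to MYEOV, of rank 1098, lay at its own promoter.

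**Figure D4:**
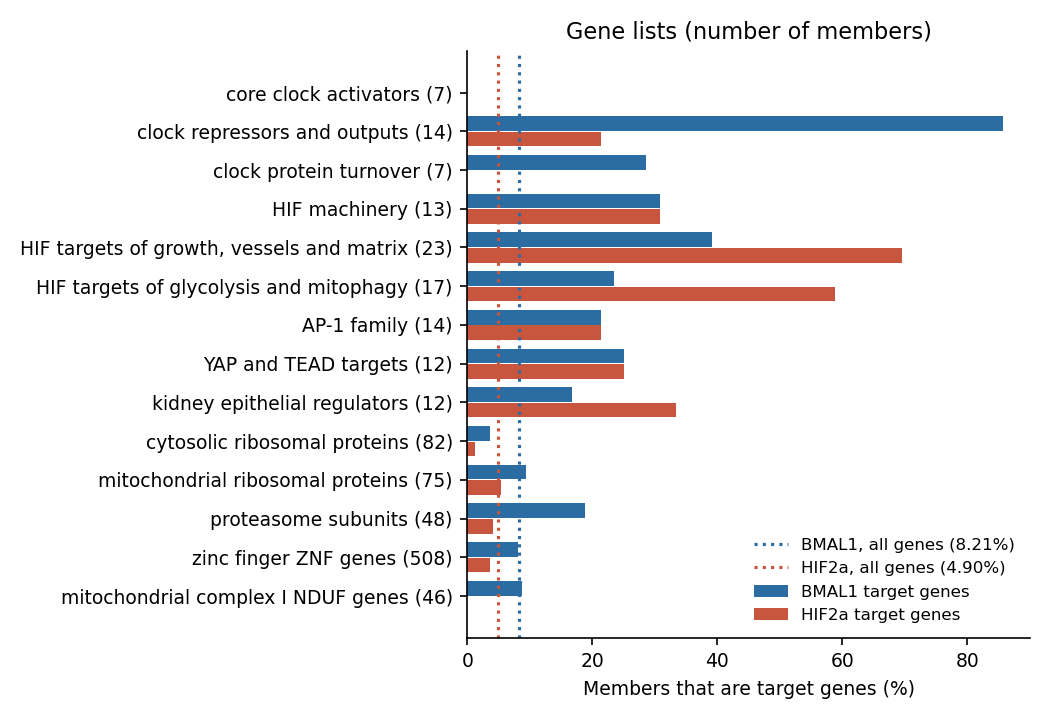
Share of the members of each gene list (%) that were BMAL1 or HIF2α target genes, with the number of members in parentheses and the shares of all protein-coding genes as dotted lines. The clock repressors and outputs reach 85.7% for BMAL1, and the HIF target lists reach 69.6% and 58.8% for HIF2α.

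Most of the larger gene lists taken for comparison were near the background. Of 508 ZNF zinc finger genes 41 were BMAL1 targets (8.07%) and 18 HIF2α targets (3.54%). Of 82 cytosolic ribosomal protein genes 3 (3.66%) and 1 (1.22%) were, and of 75 mitochondrial ribosomal protein genes 7 (9.33%) and 4 (5.33%). Of 46 NDUF genes of mitochondrial complex I and its assembly, 4 had BMAL1 (8.70%), all at promoters, and 0 had HIF2α. NDUFA4L2, a HIF target outside that list and named after its values were seen, had a HIF2α peak of rank 362. PSM genes of the proteasome and its assembly stood above the BMAL1 background with 9 of 48 (18.8%), 6 of the 9 peaks at promoters. HIF2α had 2 of 48 (4.17%). 

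Lists of AP-1 factors, YAP and TEAD targets and kidney regulators were small. Of 14 AP-1 family genes each protein had 3 (21.4%, background 8.21% for BMAL1 and 4.90% for HIF2α), with FOSL2 shared at an intron site (HIF2α rank 77, BMAL1 rank 897) and JUN bound by HIF2α alone (best rank 160, at the promoter). Of 12 YAP and TEAD targets each protein had 3 (25%, same backgrounds), and CCN1 and NT5E were shared at overlapping distal peaks. Of 12 kidney epithelial regulators BMAL1 had 2 (16.7%, background 8.21%), CDH6 and PAX8, and HIF2α had 4 (33.3%, background 4.90%), among them EMX2, PAX8 and WT1. PAX8, a lineage factor of renal cells, was shared at an intron site 637 bp downstream of a start, with rank 549 for HIF2α and 1749 for BMAL1.

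Across all overlapping pairs the strengths of the proteins were weakly related. The Spearman rho of the ranks over the 336 pairs was 0.34, and over the 276 pairs without mitochondrial matches and EPAS1 and ARNT it was 0.057, both as descriptions. In the strongest quintile of both lists lay 32 pairs, of which 24 were on EPAS1 and ARNT and 4 were mitochondrial matches, which left 4. Among the 276 pairs, the 75 at promoters had a median place of 51.9% in the BMAL1 list and 62.5% in the HIF2α list. The 201 distal pairs had 70.8% and 50.4%. HIF2α was placed higher in 41.3% of the promoter pairs and 62.7% of the distal pairs. The lists differ in length and each place is relative to its own list.

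**Figure D5:**
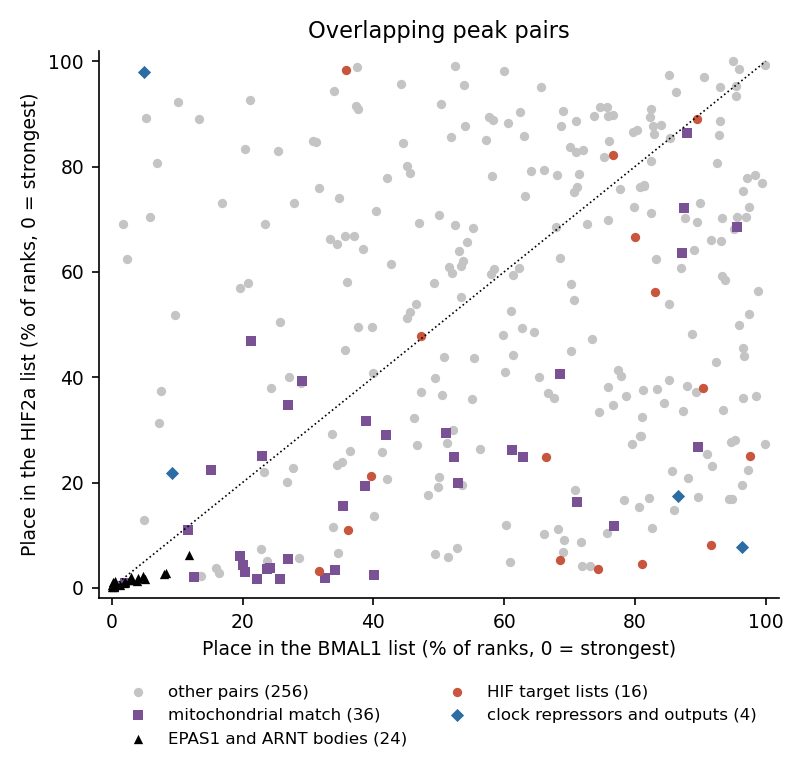
Place of each of the 336 overlapping pairs in the BMAL1 list (x axis) and in the HIF2α list (y axis), as % of ranks from the strongest peak, with the line of equal place dotted. Pairs on EPAS1 and ARNT crowd the strong corner, and 13 of the 16 pairs of the HIF target lists lie below the line, where HIF2α is placed higher.

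The overlapping genes with the smallest rank sums, after EPAS1, CTSK, ARNT and the mitochondrial matches PCDH11Y, FSTL5 and CPA6, were TMEM18, ACTR3C, ZNF254 and SNX9. TMEM18 was the one among them with a shared promoter site, of rank 88 for BMAL1 and 155 for HIF2α, and had another shared site 63064 bp upstream. SNX9, which encodes a sorting nexin of endocytosis, was shared at an intron site with rank 288 and fold 19.4 for BMAL1 and rank 45 and fold 19.95 for HIF2α. The sites of ACTR3C and ZNF254 were narrow, 147 to 158 bp wide, and lay 163199 bp or more from a start.

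Of the 380 shared genes, 291 had at least 1 overlapping pair assigned to them by both lists. The other 89, or 23.4% (19.4% to 27.9%), carried both proteins at separate peaks only. A further 87 of the 291 had an extra peak of either protein away from the overlap. When an overlap had to cover at least 50% of both peaks, 41.6% of the shared genes were bound at separate sites only, and with summits within 100 bp 40.5%.

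At the 89 genes the nearest peaks of the proteins were usually far apart. The median gap was 34342 bp (quartiles 10226 and 133494 bp), from 78 bp to 1272867 bp. It was at most 1000 bp at 8 genes and over 100000 bp at 25. BMAL1 was at the promoter and HIF2α away from it at 32 genes (36.0%), and the reverse was found at 5 (5.62%). At 4 genes both were at the promoter, and at 48 neither was. At the 291 genes with an overlap, 13 had BMAL1 at the promoter without HIF2α and 12 the reverse. Overlapping peaks share a place, so that low numbers there follow largely by construction.

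The 10 of these genes with the smallest rank sums were ASAP1, C8orf58, DLG5, LEPROT, MOB3A, PITRM1, SEC61G, SPAG4, TRIO and TSN. SPAG4, which encodes a nuclear envelope protein, had a BMAL1 promoter peak of rank 35 and fold 34.3 and, 503 bp from it, a HIF2α peak of rank 484 in an intron. At LEPROT a BMAL1 promoter peak of rank 68 and fold 27.1 stood 2031 bp from a HIF2α intron peak of rank 294. SEC61G, a subunit of the protein channel of the endoplasmic reticulum, was the reverse case, with HIF2α at the promoter (rank 110) and BMAL1 73187 bp upstream (rank 689). TRIO, which encodes a guanine nucleotide exchange factor, had 3 BMAL1 and 2 HIF2α peaks, all in introns and none overlapping.

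A pair of growth factor receptor genes belonged to the same group. MET, the receptor of hepatocyte growth factor, had BMAL1 at its promoter (rank 770) with an E-box in the window, and HIF2α in an intron 34435 bp downstream (rank 275). EGFR, chosen after its values were seen, had a BMAL1 intron peak of rank 1357 and 3 HIF2α peaks, the best of rank 50 and fold 14.9 in an intron. The closest separate peaks, at DAG1 and PPP2R1A and also chosen afterwards, were 78 bp apart, and in each gene both lay in the promoter. The ranks there were 991 for BMAL1 and 1092 for HIF2α at DAG1, and 1772 and 739 at PPP2R1A.

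The best genes of either protein alone differed in site and sequence. For BMAL1 these were ASMTL, TMEM87B, DOP1B, FBXL12, FARP2, NSUN5, BRD3OS, ESPNL, EEF2K and RAB22A, with ranks from 11 to 21 and folds of 14.7 to 58.7. Of their best peaks 7 of 10 lay in promoters, 7 windows held a GC box, and 0 held an E-box or ACGTG. RAB22A, a gene of endosome traffic, had the highest fold, 58.7, at its promoter. ASMTL lies in the part of X and Y that is the same on both, and was listed on each, with ranks 11 and 12.

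For HIF2α alone the best genes were SEMA4B, ENSG00000285082, STX16, APOH, ALDOA, SLC45A1, UBE2O, DEPP1, CPOX and SUMF1, with ranks from 30 to 55 and folds of 12.4 to 27.1. Of their best peaks 2 of 10, at ALDOA and CPOX, lay in promoters, and 9 windows held ACGTG. CPOX, an enzyme gene of haem synthesis, had rank 52, and DEPP1, a gene known to respond to FOXO factors and hypoxia, had rank 48. SLC45A1 had a second HIF2α peak of rank 84 in the same region, both over 100000 bp upstream.

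By best rank, genes of BMAL1 alone had a median place of 44.5% in the BMAL1 list, those shared with an overlap 55.4% and those shared at separate sites 66.7%. In the HIF2α list the order was different. The medians were 40.7% for genes shared with an overlap, 45.5% for those shared at separate sites and 48.8% for genes of HIF2α alone. A best rank favours genes with more peaks. These groups had 425 HIF2α peaks at 291 genes, 107 at 89 and 672 at 590. The first also holds EPAS1, CTSK, ARNT and mitochondrial matches. By peak, HIF2α peaks that overlapped had a median rank of 546.5 and those that stood alone 614.5. Without mitochondrial matches and peaks on EPAS1 and ARNT, the overlapping ones had 697.5. The order by gene was not tested without these. The distance of BMAL1 peaks from the start site had a median of 205 bp at genes of BMAL1 alone, 14289 bp at genes shared with an overlap and 9270 bp at genes shared at separate sites. For HIF2α the medians were 19432.5 bp, 17965 bp and 25764 bp. SLC39A4, a zinc importer gene, had 1 BMAL1 peak, of rank 43 and fold 24.1, and no HIF2α peak.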

How the data were processed

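Per the authors' methods, reads of the 3 libraries per antibody were aligned to hg19 with Bowtie2 2.5.3, filtered with SAMtools 1.6, called with MACS2 2.2.9.1 at a p of 1e-05 and a maximal gap of 400 bp, and cleared of blacklisted regions with bedtools 2.31.1. Whether IgG served as a control in calling is not given in the sources used here. The authors deposited 1 pooled list per group with a fold enrichment (a ratio over local background), a −log10 p, a −log10 q and a display score, neither of which was used here, and a summit offset per peak. Peaks were ranked by the deposited −log10 p, whose lowest value was 8.64 for BMAL1 and 8.83 for HIF2α. Both are stricter than a p of 1e-05, and the reason is not given in the sources used here. No values were normalized between the lists, so ranks and folds compare peaks within a list. Lists of shBMAL1 cells were left out.

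Gene models were protein-coding transcripts of GENCODE 44 mapped to GRCh37, whose coordinates are those of hg19. Midpoints were assigned to the nearest of 78701 start sites. Overlap was 1 bp or more. Matches to the mitochondrial genome were found with BLAST 2.17.0 at an e-value of 1e-05. Motif windows with undetermined bases (3 for BMAL1, 0 for HIF2α) were left out. Intervals came from statsmodels 0.14.6 in Python 3.11.15. Overlap and distance code was checked on simulated peaks. Since groups have 1 list each, no test was run. The members and the 14 gene lists were chosen with earlier results of these data known. Genes were named by rule: members of the clock, HIF and other small lists with a peak; the 10 best-ranked genes of each list; the 10 overlapping and the 10 separately bound genes of smallest rank sum; the 10 best genes of each protein alone; and the 5 genes with most peaks per list. The EPAS1, ARNT and SLC39A4 genes stood out in earlier results, and MYEOV, EGFR, DAG1, PPP2R1A and NDUFA4L2 were picked after their values were seen. The alternatives tried are given in the closing section. A few list members are counted but not reported by name here.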

Additional observations from a re-analysis of the deposited data

How the results depend on the processing

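The promoter difference, the E-box difference and the ACGTG difference kept their sign under every alternative run, and of the 149 main values under alternatives 110 stayed within the 95% interval of the reported value or, for counts of list genes, within 1.5 times. The values that moved follow. With both lists cut to 1204 peaks, 15.7% of BMAL1 and 15.8% of HIF2α peaks overlapped, the promoter difference was 43.7 points, the BMAL1 median distance 236 bp and its width 274 bp, the shared genes were 19.8% and 22.6%, 8 HIF targets had BMAL1 and 7 both, and the AP-1 and GC box differences were −23.6 and 63.1 points. At a −log10 p of at least 15 the overlap was 12.7% and 20.2%, the promoter difference 42.7 points, the BMAL1 distance 257 bp, the widths 257 and 226 bp, the shared genes 16.7% and 29.3%, those at separate sites only 29.4%, the ACGTG difference −42.1 points and the GC box difference 57.5 points. With an overlap of 50% of both peaks, 14.0% and 21.0% overlapped and 41.6% of shared genes had separate sites only; with summits within 100 bp these were 14.2%, 21.3% and 40.5%. With start sites of all annotated genes the median distances were 197.5 and 3569.5 bp, the shared genes 20.6% and 33.1%, and 15.03% had separate sites only. With start sites within 10000 bp only, 13.4% of BMAL1 target genes were shared, 15.2% of shared genes had separate sites only, and 7 HIF targets had BMAL1, 15 HIF2α and 5 both. In windows of 100 bp the E-box difference was 4.18 and the ACGTG difference −20.01 points, the AP-1 difference −8.89 and the GC box difference 46.2 points. Without mitochondrial matches and peaks on EPAS1 and ARNT, chosen after seeing the data, 15.8% and 24.4% overlapped. Shorter lists, stricter overlaps, narrower windows and denser start sites change these numbers by construction, and other causes were not tested.

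No paired analysis was possible because each group has 1 pooled list, and leaving out a library was not possible for the same reason. The lists give no spread between libraries, no depth per library, for which the methods state a nominal value only, and no IgG background, and intervals cover counting error only. Overlapping peaks are in both lists and are not independent. Summit windows test letters, not binding, and the nearest start site need not be the gene a site acts on.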
